A study of Mus musculus with 6 samples.

Results

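The expression of 59 genes of DNA replication and mitosis was examined in bone marrow mesenchymal stem cells (MSCs) that were cultured towards osteoblasts. The 59 genes were chosen by name, 33 for mitosis and 26 for replication, out of 20071 Ensembl IDs with counts, and all 59 were in the count table and passed the filter on low counts. Poly(A) RNA was sequenced from MSCs of Pcif1fl/fl mice, labelled WT and called control here, and of Prrx1-Cre;Pcif1fl/fl littermates, labelled CKO, with 3 libraries per genotype. Both genotypes carry the floxed alleles of Pcif1, which encodes the methyltransferase that makes m6Am next to the mRNA cap, and they differ by the Cre, which is driven by an enhancer of Prrx1, a gene of limb mesenchyme. The cells came from femurs of 6-week-old mice on a C57BL/6J background and were collected after 7 days in osteogenic medium, which held dexamethasone at 100 nM, β-glycerophosphate at 5 mM and ascorbic acid at 50 μg/mL. The question addressed is whether the RNA of the cell division machinery differed between the genotypes after osteogenic induction.

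Dividing cells transcribe these genes in waves. Around the G1/S transition, E2F factors drive the genes that license origins, unwind and copy DNA and supply nucleotides, and in G2 and M a second set for spindle, centromere, checkpoint and cytokinesis follows under FOXM1 and the MuvB complex. Cells that leave the cycle, as osteoblast precursors do when they mature, lose both sets. In bulk RNA, fewer dividing cells and less of a transcript per dividing cell cannot be told apart.

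The libraries held between 20258209 and 28227696 counts, and the lowest count of any of the 59 genes in any library was 46. One library stood apart: control replicate 3 had 3.63% of its counts on mitochondrial genes against 1.40 to 1.57% in the other 5 libraries. It also differed more from its own group, with a chi-square per gene of 82.9 and 98.6 against the other controls, where the remaining pairs within a genotype gave 2.83 to 10.1. Values without it are therefore given for the members whose value or call differs. The count of Pcif1 itself was 39.3 to 42.8 CPM (read counts scaled to library size) in the control and 37.8 to 39.7 CPM in the CKO libraries (adjusted p = 0.645), and a count over the whole gene does not show the loss of single exons, so that it does not check the labels. Xist, the RNA of the inactive X chromosome, was at 232 to 443 CPM in the control libraries and at 0.722 to 1.79 CPM in the CKO libraries. The sex of the mice is not given for these libraries. Genotype and whatever this difference in Xist stands for cannot be told apart. Macrophage markers summed to 34190 to 37950 CPM in the control and 35890 to 39080 CPM in the CKO libraries, with Lyz2 giving 65.5% of the sum. The 12 markers of marrow stroma summed to 15310 to 16140 and 21310 to 22380 CPM, most of it from the matrix genes Fn1, Col1a1 and Col1a2. Every CKO library lay below every control for 3 of the 12, Pdgfra, Pdgfrb and Eng, and above for 7, against 15.7% and 15.0% of all genes tested. Macrophages and stromal cells can both hold dividing cells, so that the cell type behind each value below is not known.

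Mitosis genes were lower in the CKO libraries nearly as a block, by amounts that mostly did not pass the test one by one. A log2 fold change below 0 (CKO lower than control) was found for 32 of the 33 genes, against 49.7% of all 13733 genes tested, and the median was -0.52, or a level changed by -30.2%, where the median of all genes tested was 0.0017. In the quasi-likelihood test of edgeR, with p-values adjusted by Benjamini-Hochberg, 4 of the 33 genes (12.1%) fell at an adjusted p under 0.05, namely Cdca3, Ccnf, Ccnb1 and Ttk. Among all genes tested, 4.51% fell and 2.88% rose by the same rule. No mitosis gene rose, with 0 at an unadjusted p under 0.05 and 0 in DESeq2. At an unadjusted p under 0.05, 26 of the 33 genes were lower (78.8%), against 11.8% of all genes. The 3 CKO libraries lay below all 3 control libraries for 25 of the 33 genes (75.8%), against 15.7% of all genes tested, and lay above them for 0, against 15.0%. In the fit of all 6 libraries, 0 of the 33 genes had an adjusted p under 0.05 and a log2 fold change of -1 or less, a rule that 2.50% of all genes met. Mki67 had the lowest value, at -0.93, but was at -0.46 without control replicate 3, when Ccnf had the lowest at -0.90.

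The values of the replication genes were smaller in size. Their median log2 fold change was -0.23, or -14.8%, and 24 of the 26 genes had a value below 0. One gene, Mcm7, fell (3.85%, against 4.51% of all genes), 7 were lower at an unadjusted p under 0.05 (26.9% against 11.8%), and 0 rose in edgeR, with 0 at an unadjusted p under 0.05 and 0 in DESeq2. The CKO libraries lay below all controls for 13 of the 26 genes (50.0% against 15.7%), above them for 1, Rrm2, and overlapped with them for the other 12. Whether the mitosis and replication genes differed from each other in their change was not tested.

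The counts of genes passing the test moved with single libraries more than the medians did. Without control replicate 3, 22 mitosis genes (66.7%) and 8 replication genes (30.8%) fell, and so did 10.4% of all genes tested in that fit, with medians of -0.42 and -0.23. DESeq2 on all 6 libraries called 15 mitosis genes (45.5%) and 2 replication genes (7.69%) lower, against 5.26% of all genes to which it gave an adjusted p. Without control replicate 1, edgeR called 3 mitosis genes lower, Cdca3, Mki67 and Ccna2, and without control replicate 2 it called 1, Cdca3, so that Ccnf, Ccnb1 and Ttk lost the call in both fits. Neither fit called a replication gene (5 replication genes at an unadjusted p under 0.05 in either fit), against 3.49% and 3.17% of all genes. Without CKO replicate 1, 2 or 3, it called 0 of the 59 genes, against 2.32%, 2.50% and 2.35% of all genes, while 19, 20 and 19 mitosis genes and 4, 3 and 6 replication genes had an unadjusted p under 0.05. DESeq2 was not run without single libraries. In these 3 fits the medians were between -0.50 and -0.46 for mitosis and between -0.25 and -0.18 for replication.

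**Figure D1:**
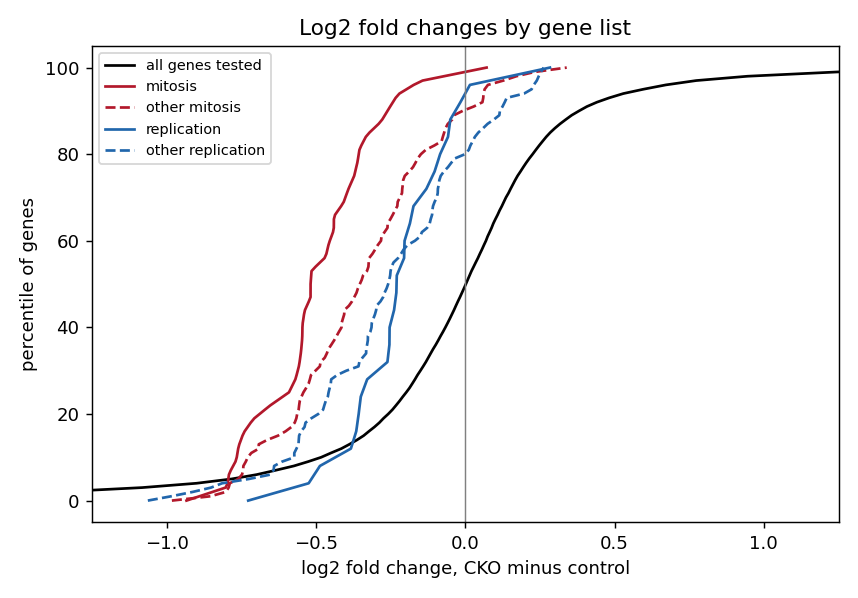
Cumulative distribution of log2 fold changes (x axis, CKO minus control) as percentiles of genes (y axis) for the 33 mitosis genes, the 26 replication genes, 76 other mitosis and 72 other replication genes and all 13733 genes tested. The 4 cell division curves lie to the left of the curve of all genes through most of their range, with medians of -0.52, -0.23, -0.35 and -0.26 against 0.0017.

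The start sites of the 2 sets differ in sequence in a way that the choice of genes did not use. RefSeq promoter windows on GRCm38.p6, from 250 bases before to 50 bases after the start, were at hand for 50 of the 59 genes, 28 of mitosis in 30 windows and 22 of replication in 24 windows. On either strand, the letters TTTGAA, the core of the cell cycle genes homology region (CHR) that MuvB complexes bind, were in 83.3% of the mitosis windows, 8.33% of the replication windows and 17.9% of all 32851 windows. Within 50 bases of the start the shares were 76.7%, 4.17% and 4.94%. The letters CCAAT, the box bound by NF-Y, were in 86.7%, 66.7% and 37.4% of the windows. The E2F letters TTTCGCGC, TTTGGCGC or TTTCCCGC were in 3.33% of mitosis windows, the 1 window of Cdk1, in 37.5% of replication windows and in 1.84% of all windows. None of the 3 motifs contains another. These matches describe the letters in the window and not binding in these cells.

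The 200 bases before the start are given for 4 mitosis genes, chosen as the named markers of dividing cells (Mki67, Top2a), a gene that fell (Ccnf) and one that did not pass the test (Cdk1), with each TTTGAA in capitals, or TTCAAA where the match is on the other strand. They run 5′ to 3′ on the strand of the gene.
Mki67, chr7:135716380-135716579, minus strand: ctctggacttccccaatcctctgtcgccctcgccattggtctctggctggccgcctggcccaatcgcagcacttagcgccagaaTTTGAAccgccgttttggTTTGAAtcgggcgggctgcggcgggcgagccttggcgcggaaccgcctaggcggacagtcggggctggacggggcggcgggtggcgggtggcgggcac
Top2a, chr11:99024190-99024389, minus strand: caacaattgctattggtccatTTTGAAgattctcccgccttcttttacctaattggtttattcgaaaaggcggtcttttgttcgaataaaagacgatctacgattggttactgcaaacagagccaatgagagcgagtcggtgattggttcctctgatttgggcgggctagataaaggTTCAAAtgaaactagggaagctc
Ccnf, chr17:24251410-24251609, minus strand: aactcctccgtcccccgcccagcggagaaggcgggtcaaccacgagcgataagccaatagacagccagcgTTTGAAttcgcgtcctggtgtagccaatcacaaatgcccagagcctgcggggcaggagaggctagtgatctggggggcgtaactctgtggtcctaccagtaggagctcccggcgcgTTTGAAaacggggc
Cdk1, chr10:69352913-69353112, minus strand: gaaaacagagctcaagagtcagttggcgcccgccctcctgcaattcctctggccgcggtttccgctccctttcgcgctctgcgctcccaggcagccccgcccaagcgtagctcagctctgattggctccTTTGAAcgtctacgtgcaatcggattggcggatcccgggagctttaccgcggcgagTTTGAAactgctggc
Mki67 carries the element 116 and 98 bases before the start, Top2a at 179 and 23, Ccnf at 130 and 14 and Cdk1 at 71 and 15. The log2 fold change was -0.93 for Mki67, -0.80 for Ccnf, -0.41 for Top2a and -0.15 for Cdk1, and without control replicate 3 it was -0.46, -0.90, -0.35 and -0.33. Differences between these genes were not tested. Over the mitosis genes with a window, the median log2 fold change was -0.47 for the 23 genes with the element and -0.52 for the 5 without.

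For replication, the same stretch is given for 3 MCM genes and for Cdc6, with the E2F letters on either strand in capitals and joined where matches overlap.
Mcm5, chr8:75109309-75109508, plus strand: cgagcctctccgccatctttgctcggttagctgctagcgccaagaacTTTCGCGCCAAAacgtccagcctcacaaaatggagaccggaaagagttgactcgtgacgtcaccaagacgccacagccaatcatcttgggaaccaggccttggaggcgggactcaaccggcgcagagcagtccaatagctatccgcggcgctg
Mcm6, chr1:128359706-128359905, minus strand: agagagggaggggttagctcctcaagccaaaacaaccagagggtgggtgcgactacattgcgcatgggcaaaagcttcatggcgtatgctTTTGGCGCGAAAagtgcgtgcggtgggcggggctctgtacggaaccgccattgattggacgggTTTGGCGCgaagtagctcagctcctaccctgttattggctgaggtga
Mcm7, chr5:138171884-138172083, minus strand: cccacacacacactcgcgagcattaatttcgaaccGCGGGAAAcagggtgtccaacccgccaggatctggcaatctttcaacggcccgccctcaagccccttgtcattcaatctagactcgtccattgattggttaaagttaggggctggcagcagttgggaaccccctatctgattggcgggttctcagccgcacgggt
Cdc6, chr11:98907951-98908150, plus strand: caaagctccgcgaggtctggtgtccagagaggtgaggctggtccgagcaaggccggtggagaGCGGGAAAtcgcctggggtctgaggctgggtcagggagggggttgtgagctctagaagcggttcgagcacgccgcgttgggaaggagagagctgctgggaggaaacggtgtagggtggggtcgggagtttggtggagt
The matches begin 153 and 149 bases before the start of Mcm5, 110, 106 and 47 bases before that of Mcm6, 165 bases before that of Mcm7 and 138 bases before that of Cdc6. In Mcm5 and Mcm6, a pair of matches on opposite strands overlaps. The 9 replication genes with E2F letters in the window had a median log2 fold change of -0.23 and the 13 without had -0.21.

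Since PCIF1 methylates an adenosine only where it is the first transcribed base, the annotated first base was read for each gene. It was A in 11 of 33 mitosis genes (33.3%), 2 of 26 replication genes (7.69%) and 26.8% of the tested genes with a transcript in GENCODE M21. The median log2 fold change of the mitosis genes was -0.55 with A and -0.46 with another base, and that of the replication genes was -0.23 in both classes. The order of these shares depends on the annotation: base 1 of the RefSeq windows was A in 6 of 30 mitosis windows, 6 of 24 replication windows and 34.4% of all windows. An annotated start need not be the start used in these cells.

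Mki67 and Top2a are the usual markers of dividing cells. Mki67 encodes Ki-67, which coats mitotic chromosomes, and was at 66.8, 95.3 and 175 CPM in the control and 58.1, 48.03 and 70.5 CPM in the CKO libraries. The groups overlapped, since CKO replicate 3 was above control replicate 1, and control replicate 3 was far above the other controls. The log2 fold change was -0.93 ± 0.32 (SE, adjusted p = 0.131), without control replicate 3 it was -0.46 (adjusted p = 0.0310), and over all fits that left out 1 library it ranged from -1.20 to -0.46. Top2a encodes topoisomerase IIα, which untangles sister chromatids, and was at 57.9, 62.7 and 67.8 CPM in the control and 45.9, 44.8 and 51.3 CPM in the CKO libraries. Every CKO library was below every control, with a log2 fold change of -0.41 ± 0.10 (SE, adjusted p = 0.0527), and without control replicate 3 the value was -0.35 (adjusted p = 0.00590). Per kilobase of the longest transcript, Top2a had a mean of 10.6 and Mki67 of 8.52 CPM, the highest levels among the mitosis genes.

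**Figure D2:**
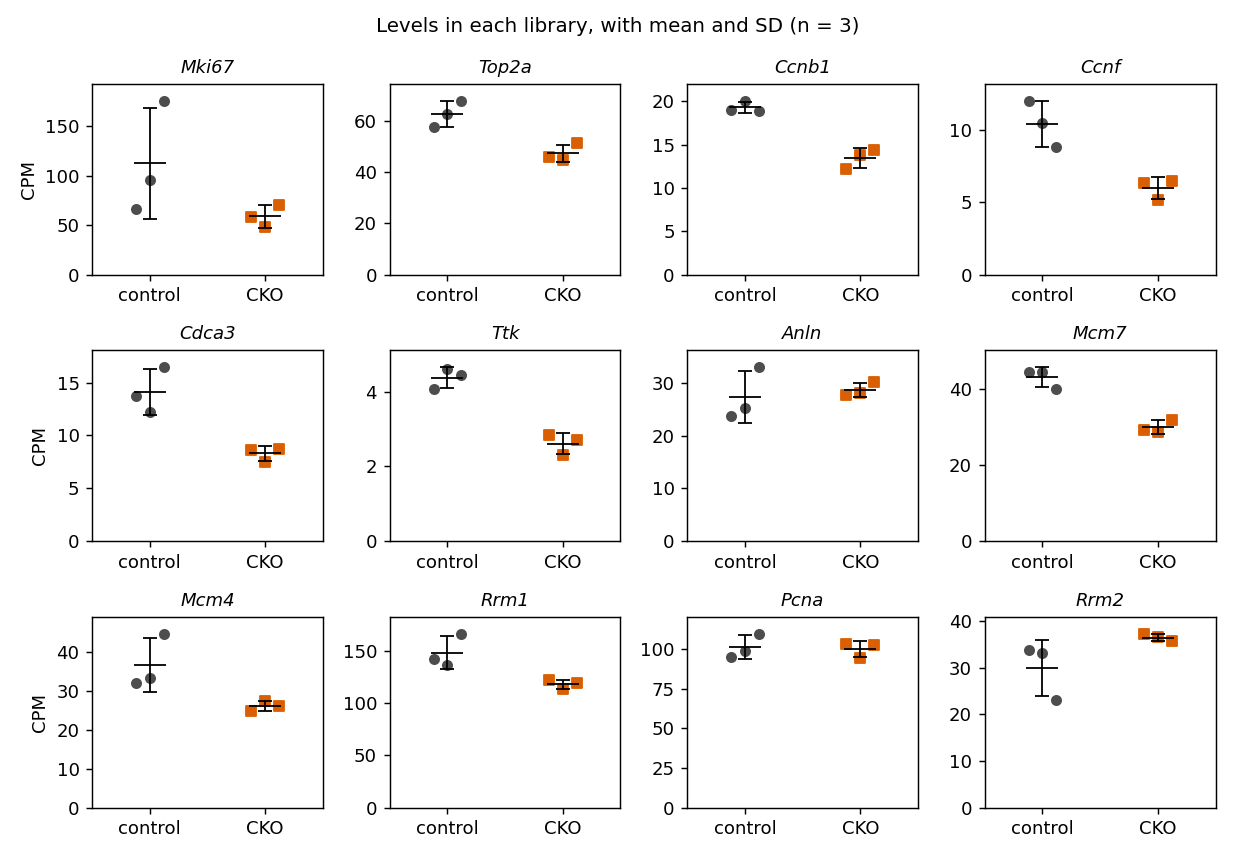
Level in CPM (y axis, from 0) of 12 genes in the 3 control (circles) and 3 CKO libraries (squares), with the mean and SD of each genotype. Ccnb1, Ccnf, Cdca3, Ttk and Mcm7 passed the test, and for Mki67, Anln and Pcna the genotypes overlap.

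Among the cyclins and their regulators, the median log2 fold change of the 6 genes was -0.59. All CKO libraries lay below all controls for 5 of them, against 15.7% of all genes tested. Ccnb1 encodes cyclin B1, the partner of CDK1 at entry into mitosis, and was at 18.96, 20.03 and 18.9 CPM in the control and 12.2, 13.8 and 14.4 CPM in the CKO libraries. No CKO library reached the lowest control, and Ccnb1 fell with a log2 fold change of -0.52 ± 0.12 (SE, adjusted p = 0.0347), or -0.53 without control replicate 3. When any other single library was left out, Ccnb1 had an adjusted p over 0.05. Ccnf encodes cyclin F, the substrate receptor of an SCF ubiquitin ligase in G2, and was at 11.97, 10.4 and 8.82 CPM in the control and 6.30, 5.13 and 6.50 CPM in the CKO libraries. Every CKO library was below the lowest control, and Ccnf fell with a log2 fold change of -0.80 ± 0.17 (SE, adjusted p = 0.0267), or -0.90 without control replicate 3 (adjusted p = 0.000456). Without any other single library, Ccnf had an adjusted p over 0.05. Ccna2, Foxm1 and Ccnb2, for cyclin A2, the G2/M transcription factor and cyclin B2, did not overlap between genotypes either and had log2 fold changes of -0.76, -0.66 and -0.37 (adjusted p = 0.0582, 0.0590 and 0.132), or -0.51, -0.48 and -0.36 without control replicate 3 (adjusted p = 0.00563, 0.0112 and 0.0554). Cdk1, the mitotic kinase itself, was the exception and was at 25.5, 23.7 and 15.7 CPM in the control and 20.2, 18.8 and 19.3 CPM in the CKO libraries. Control replicate 3 was the lowest of the 6 libraries for Cdk1, which had a log2 fold change of -0.15 ± 0.18 (SE, adjusted p = 0.674), while without that library the value was -0.33 (adjusted p = 0.0181).

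The 8 mitotic kinase and checkpoint genes had a median log2 fold change of -0.53. Ttk encodes MPS1, the kinase that starts the spindle checkpoint, and had one of the 2 lowest levels in CPM of the mitosis genes. It was at 4.06, 4.59 and 4.45 CPM in the control and 2.84, 2.29 and 2.69 CPM in the CKO libraries. The highest CKO library lay well below the lowest control, and Ttk fell with a log2 fold change of -0.74 ± 0.18 (SE, adjusted p = 0.0414). The checkpoint genes Bub1b and Bub1 had log2 fold changes of -0.44 and -0.55 (adjusted p = 0.0586 and 0.140). Of the 8 genes, 7 had every CKO library below every control, against 15.7% of all genes tested, and only Bub1 overlapped. Plk1, the polo kinase of mitotic entry and centrosome maturation, had -0.59 (adjusted p = 0.0605). Of the chromosomal passenger complex, Aurkb had -0.57, Birc5 -0.52 and Cdca8 -0.28 (adjusted p = 0.125, 0.0582 and 0.269). Aurka, the kinase of the spindle poles, had -0.46 (adjusted p = 0.174), and CKO replicate 2 at 8.61 CPM was just below control replicate 2 at 8.64 CPM. Without control replicate 3, 6 of the 8 genes fell, against 10.4% of all genes, with log2 fold changes of -0.39 for Bub1b, -0.45 for Plk1, -0.71 for Aurkb, -0.54 for Birc5, -0.36 for Cdca8 and -0.73 for Ttk, while Bub1 was at -0.48 and Aurka at -0.41.

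All 8 kinesin and spindle genes had every CKO library below every control, against 15.7% of all genes. None passed the test in edgeR with 6 libraries (background 4.51%), while 8 had an unadjusted p under 0.05 (11.8%) and DESeq2 called 3 (5.26%). Without control replicate 3, edgeR called 5, against 10.4% of all genes, and their median log2 fold change was -0.42, in place of -0.50. Kif2c, a kinesin that depolymerizes microtubules at centromeres, was at 8.52, 7.64 and 8.86 CPM in the control and 5.00, 6.22 and 6.88 CPM in the CKO libraries. Its groups were separated by less than 1 CPM, with a log2 fold change of -0.47 ± 0.16 (SE, adjusted p = 0.142). Nusap1, a microtubule bundler of the spindle, had the lowest value of the 8 at -0.79 (adjusted p = 0.0996), followed by Kif23, the kinesin of the midzone, at -0.71 (adjusted p = 0.0857). Without control replicate 3 that order turned, with Kif23 at -0.52 and Nusap1 at -0.46 (adjusted p = 0.0352 and 0.0491). Prc1, which crosslinks midzone microtubules, had -0.56 (adjusted p = 0.0518) and Kif11, the motor that pushes the poles apart, -0.54 (adjusted p = 0.0908), or -0.46 and -0.43 without that library (adjusted p = 0.0104 and 0.0341). Hmmr, a microtubule-binding protein of the spindle, Tpx2, the activator of Aurora A, and Kif20a, a kinesin of cytokinesis, had -0.44, -0.39 and -0.36 (adjusted p = 0.224, 0.148 and 0.129), or -0.20, -0.24 and -0.39 without control replicate 3. Exons of Prc1 overlap an antisense gene over 11.1% of their bases, and those of Kif20a over 29.3%, and whether counting used strand is not given in the sources used here.

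For all 3 centromere genes the groups shared part of their range. For Cenpa, the centromeric histone H3 variant, Cenpe, a kinetochore motor, and Cenpf, a large kinetochore protein, the log2 fold changes were -0.23, -0.35 and -0.55 (adjusted p = 0.512, 0.435 and 0.240). Cenpe was at 11.3, 16.3 and 22.7 CPM in the controls and at 12.1, 13.4 and 14.0 CPM in the CKO libraries, so that its value without control replicate 3 was -0.07. Cenpf likewise went to -0.28 without that library. Cenpa moved the other way, from -0.23 to -0.39 (adjusted p = 0.0302).

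Of the 3 genes of the anaphase-promoting complex and ubiquitin ligases, Cdca3, a trigger of mitotic entry that joins an SCF ligase, had the smallest p-value of all mitosis genes. It was at 13.7, 12.2 and 16.4 CPM in the control and 8.60, 7.52 and 8.76 CPM in the CKO libraries. The CKO libraries were clear of the controls, and Cdca3 fell with a log2 fold change of -0.77 ± 0.15 (SE, adjusted p = 0.0201), or -0.64 without control replicate 3 (adjusted p = 0.00237). Cdc20, the activator of the complex, had -0.33 with no overlap (adjusted p = 0.220), or -0.42 without that library (adjusted p = 0.0209). Ube2c, the E2 enzyme of the complex, had -0.55 (adjusted p = 0.201), or -0.30 without control replicate 3, with 1 CKO library inside the control range, and an antisense gene covers 22.8% of its exons. In cytokinesis, Racgap1, a subunit of centralspindlin, had -0.52 (adjusted p = 0.0711), or -0.40 without control replicate 3 (adjusted p = 0.0173), and Ect2, the exchange factor that activates RhoA, -0.26 (adjusted p = 0.292), both with no overlap. Anln encodes anillin, the scaffold of the contractile ring, which also acts on cortical actin outside mitosis, and was at 23.7, 25.3 and 32.95 CPM in the control and 27.7, 28.1 and 30.3 CPM in the CKO libraries. The CKO libraries lay within the control range, and Anln was the only mitosis gene with a log2 fold change above 0, at 0.07 ± 0.14 (SE, adjusted p = 0.811). It was at 0.23 without control replicate 3, and without control replicate 1 its sign turned, at -0.02.

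**Figure D3:**
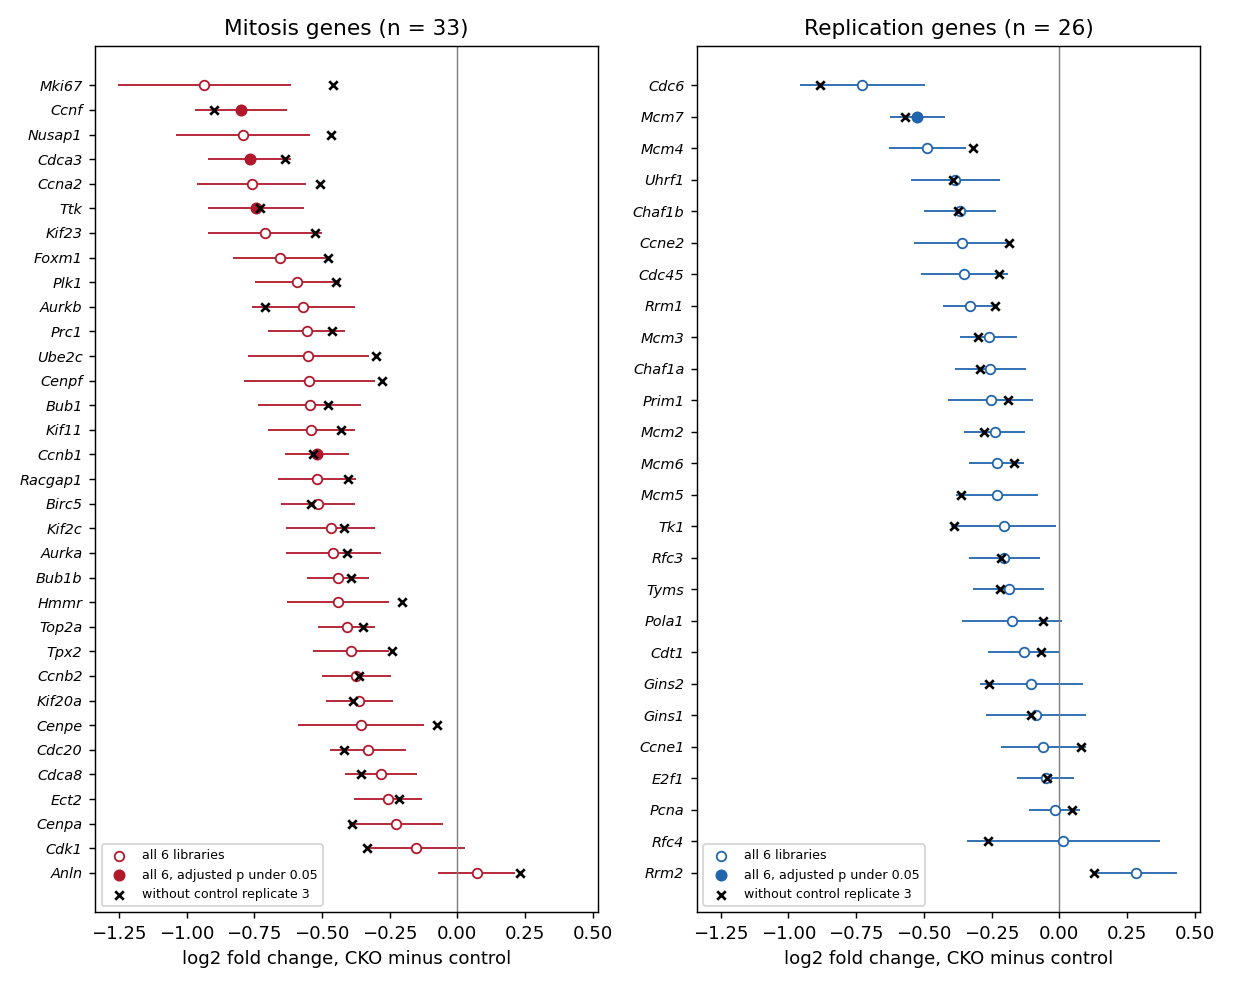
Log2 fold change (x axis, CKO minus control) of each of the 59 genes, with bars for the SE, in the fit of all 6 libraries (circles, filled at an adjusted p under 0.05) and without control replicate 3 (crosses). All mitosis genes but Anln lie left of 0 in both fits, and the crosses lie right of the circles for long transcripts such as those of Mki67, Cenpe and Cenpf.

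The MCM2-7 genes encode the ring that forms the replicative helicase. All 6 had values below 0, against 49.7% of all genes tested, with a median log2 fold change of -0.25. The CKO libraries lay below all controls for each but Mcm5, against 15.7% of all genes tested. Mcm7 was at 44.5, 44.5 and 40.1 CPM in the control and 29.3, 28.6 and 31.9 CPM in the CKO libraries. Neither group spread into the other, and Mcm7 fell with a log2 fold change of -0.52 ± 0.10 (SE, adjusted p = 0.0171), or -0.57 without control replicate 3 (adjusted p = 0.000106). Exons of Mcm7 overlap Ap4m1, Cops6 and the host positions of Mir93 and Mir25 over 12.6% of their bases. Mcm4 was at 32.1, 33.4 and 44.7 CPM in the control and 24.98, 27.5 and 26.2 CPM in the CKO libraries. It was separated between genotypes, with a log2 fold change of -0.49 ± 0.14 (SE, adjusted p = 0.0835), and control replicate 3 was the highest library. Without it, Mcm4 was at -0.32 (adjusted p = 0.0139).

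The other 4 subunits had smaller differences in the fit of all 6 libraries. Mcm2 was at 35.8, 34.1 and 31.8 CPM in the control and 31.3, 25.7 and 29.2 CPM in the CKO libraries, with a log2 fold change of -0.24 ± 0.11 (SE, adjusted p = 0.270), or -0.28 without control replicate 3 (adjusted p = 0.0443). Mcm3 was at 51.4, 47.9 and 45.2 CPM in the control and 43.03, 36.4 and 41.1 CPM in the CKO libraries, with a log2 fold change of -0.26 ± 0.11 (SE, adjusted p = 0.201), or -0.30 without that library (adjusted p = 0.0186). For both, the groups were apart by less than 3 CPM between the nearest libraries. Mcm6 was at 59.2, 58.1 and 66.2 CPM in the control and 55.9, 48.6 and 51.9 CPM in the CKO libraries, with a log2 fold change of -0.23 ± 0.10 (SE, adjusted p = 0.235). Mcm5 was at 25.9, 25.9 and 18.9 CPM in the control and 19.00, 19.3 and 22.03 CPM in the CKO libraries, with a log2 fold change of -0.23 ± 0.15 (SE, adjusted p = 0.432). For Mcm5, control replicate 3 was the lowest of the 6 libraries, and without it the value was -0.36 (adjusted p = 0.0142). In that fit 5 of the 6 MCM genes fell, against 10.4% of all genes, and Mcm6 had an adjusted p of 0.143.

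Among the 5 genes of origin licensing and helicase activation, Cdc6, which loads the MCM ring at origins, had the lowest value of all replication genes. It was at 5.72, 5.29 and 3.77 CPM in the control and 3.47, 2.34 and 3.08 CPM in the CKO libraries. The groups were separated narrowly, between control replicate 3 and CKO replicate 1, with a log2 fold change of -0.73 ± 0.23 (SE, adjusted p = 0.107), or -0.88 without control replicate 3 (adjusted p = 0.00595). Cdt1, the partner of CDC6 in loading, had -0.13 with overlapping genotypes, and Cdc45, a part of the active helicase, had -0.35 with none (adjusted p = 0.617 and 0.261), or -0.07 and -0.22 without control replicate 3. Gins1, for a subunit of the GINS complex, had the lowest level in CPM of the replication genes and was at 2.88, 3.75 and 3.19 CPM in the control and 3.02, 3.19 and 3.08 CPM in the CKO libraries. The groups overlapped and the log2 fold change of Gins1 was -0.08 ± 0.18 (SE, adjusted p = 0.831). Gins2, for another GINS subunit, had -0.10 (adjusted p = 0.796), or -0.26 without control replicate 3, and an antisense gene covers 67.3% of its exons.

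The 5 polymerase, clamp and clamp loader genes had a median log2 fold change of -0.17 and no gene past the test (0 also at an unadjusted p under 0.05 and in DESeq2). Pcna encodes the sliding clamp, which serves DNA repair as well as replication, and was at 94.8, 98.7 and 109 CPM in the control and 103, 93.97 and 102 CPM in the CKO libraries. Control and CKO libraries were interleaved for Pcna, with a log2 fold change of -0.02 ± 0.09 (SE, adjusted p = 0.940). Per kilobase of transcript Pcna was the highest of the 59 genes, at a mean of 66.1 CPM. Prim1 and Pola1, of the primase and polymerase α, had -0.25 and -0.17, and the clamp loader genes Rfc3 and Rfc4 had -0.20 and 0.02, with adjusted p-values from 0.409 to 0.988. Without control replicate 3, Pola1 was at -0.06 and Rfc4 at -0.26. Rfc4 was at 2.58 to 6.36 CPM in the controls and 3.09 to 6.17 CPM in the CKO libraries. Its SE of 0.36 was the largest of the 59 genes, and its sign depended on which library was left out.

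Among the nucleotide supply genes, both subunits of ribonucleotide reductase were measured and their values had opposite signs. Rrm1, the large subunit of ribonucleotide reductase, was at 142, 136 and 166 CPM in the control and 122, 113 and 119 CPM in the CKO libraries. Every CKO library was below every control, with a log2 fold change of -0.33 ± 0.10 (SE, adjusted p = 0.0943), or -0.24 without control replicate 3 (adjusted p = 0.0185). Rrm2, the small subunit whose level follows S phase, was at 33.9, 33.1 and 22.98 CPM in the control and 37.2, 36.5 and 35.6 CPM in the CKO libraries. For Rrm2 every CKO library was above every control, as for 15.0% of all genes tested. It was the only such gene of the 59, with a log2 fold change of 0.28 ± 0.15 (SE, adjusted p = 0.338). Leaving out control replicate 3, the lowest library for Rrm2, the value was 0.13 (adjusted p = 0.280). Tyms and Tk1, for thymidylate synthase and thymidine kinase, had -0.19 and -0.21 (adjusted p = 0.472 and 0.594), with overlap only for Tk1, which was at -0.39 without control replicate 3 (adjusted p = 0.0263).

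Chaf1a and Chaf1b, subunits of the histone chaperone behind the fork, had log2 fold changes of -0.25 and -0.37 (adjusted p = 0.318 and 0.155), and Uhrf1, which guides the copying of DNA methylation, had -0.38 (adjusted p = 0.223). An antisense gene covers 52.5% of the exons of Chaf1a. Of the G1/S regulators, Ccne1, for cyclin E1, and the transcription factor gene E2f1 had values near 0, at -0.06 and -0.05 (adjusted p = 0.866 and 0.823), and without control replicate 3 Ccne1 was at 0.08. E2f1 was at 35.3 to 39.9 CPM in the control and 33.1 to 38.2 CPM in the CKO libraries. Ccne2, for cyclin E2, was at -0.36 with no overlap (adjusted p = 0.302), or -0.19 without that library.

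Seen by library, the 33 mitosis genes had medians of -0.09, -0.06 and 0.14 in control replicates 1, 2 and 3 and of -0.53, -0.47 and -0.39 in the CKO replicates, as log2 levels relative to each gene's control mean. The 26 replication genes had 0.03, -0.0008 and -0.02 in the controls and -0.17, -0.33 and -0.15 in the CKO libraries. For all genes tested, the same medians lay between 0.002 and 0.02. Control replicate 3 was the highest of the 6 libraries for 21 of 33 mitosis genes and 10 of 26 replication genes, and CKO replicate 2 was the lowest for 14 and 17. No CKO library was the highest for any mitosis gene.

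**Figure D4:**
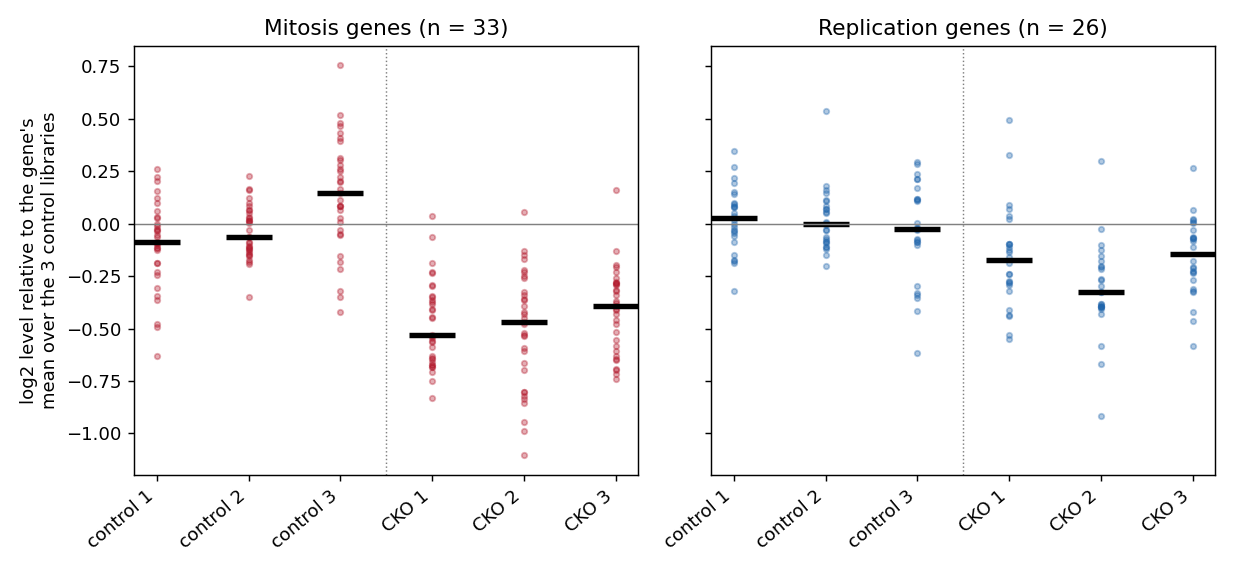
Log2 level of each mitosis and replication gene (points) in the 6 libraries (x axis), relative to the gene's mean over the 3 controls (y axis), with the median of each list as a bar. For mitosis the CKO medians of -0.53, -0.47 and -0.39 lie below the control medians of -0.09, -0.06 and 0.14, and control replicate 3 has the widest spread upward.

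The deviation of control replicate 3 was not alike for all members. Against the geometric mean of control replicates 1 and 2, its log2 level was 1.14 higher for Mki67, 0.82 for Nusap1, 0.74 for Cenpe and 0.72 for Cenpf, and it was lower for Rfc4 at -1.05, Tk1 at -0.65 and Cdk1 at -0.65. Over the 59 genes, this deviation correlated with the log2 length of the longest transcript at r = 0.44 (Spearman's rho = 0.32) and with GC content at r = -0.31. The log2 fold change itself correlated with the log2 length at r = -0.33 (rho = -0.26) over the 59 genes, -0.13 over the mitosis genes and -0.42 over the replication genes, and at -0.07, 0.29 and -0.31 without control replicate 3. The points share the same libraries, and these correlations are descriptions across genes. With a correction for length and GC content in the fit, the medians were -0.46 for mitosis and -0.18 for replication.

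**Figure D5:**
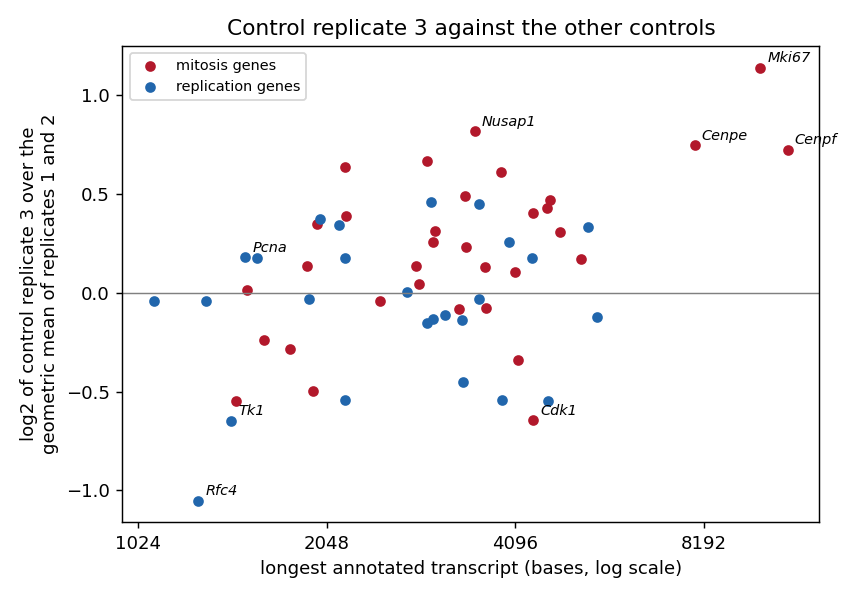
Log2 ratio of control replicate 3 over the geometric mean of control replicates 1 and 2 (y axis) against the length of the longest annotated transcript (x axis, bases, log scale) for the 59 genes. The long transcripts of Mki67, Cenpe and Cenpf lie at 1.14, 0.74 and 0.72, and the short ones of Rfc4 and Tk1 at -1.05 and -0.65.

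The wider machinery was read from 2 further lists that hold none of the 59 genes. Of 76 other mitosis genes, 68 had log2 fold changes below 0 with a median of -0.35, 6 fell (7.89%, against 4.51% of all genes) and 0 rose (1 at an unadjusted p under 0.05, 0 in DESeq2). The 6 were Ncapd2, Stmn1, Knstrn, Hmgb2, Ncaph and Incenp. Ncapd2, a subunit of condensin I, was at 35.6, 32.9 and 32.95 CPM in the control and 20.2, 20.3 and 20.98 CPM in the CKO libraries and fell with a log2 fold change of -0.73 ± 0.10 (SE, adjusted p = 0.00321). Stmn1, which destabilizes microtubules and is also used outside mitosis, was at 33.1, 29.8 and 26.8 CPM in the control and 16.6, 14.6 and 19.97 CPM in the CKO libraries and fell with a log2 fold change of -0.81 ± 0.15 (SE, adjusted p = 0.0125). Both were lower in every CKO library than in any control. Of 72 other replication genes tested, 57 were below 0 with a median of -0.26, 1 fell, Clspn (1.39%), and 0 rose (0 at an unadjusted p under 0.05, 0 in DESeq2). Clspn encodes claspin, which travels with the fork and relays the replication checkpoint, and it was at 9.35, 8.27 and 11.7 CPM in the control and 5.00, 4.53 and 5.63 CPM in the CKO libraries, with a log2 fold change of -0.95 ± 0.18 (SE, adjusted p = 0.0150). The share of other replication genes that fell at an adjusted p under 0.05 was below the 4.51% of all genes. At an unadjusted p under 0.05, 32.9% of the other mitosis and 26.4% of the other replication genes were lower, against 11.8% of all genes, and all CKO libraries lay below all controls for 40.8% and 31.9%, against 15.7%. DESeq2 called 13.2% and 5.56% of them lower, against 5.26%. Without control replicate 3, 12 other mitosis genes (15.8%) and 8 other replication genes (11.1%) fell, against 10.4% of all genes.

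The summed level of the 33 mitosis genes was 562 to 758 CPM in the control and 428 to 475 CPM in the CKO libraries, and that of the 26 replication genes was 716 to 749 and 594 to 651 CPM. The marrow stromal marker sum given above also separated the genotypes, in the other direction, with Fn1 giving 39.4% of the sum. Of its 12 markers, 5 were higher at an adjusted p under 0.05, among them Col1a1 and Col1a2, and 2 were lower, Pdgfra and Eng, against 2.88% and 4.51% of all genes. In the fit without control replicate 3, 9 were higher and 3 lower, against 11.1% and 10.4% of all genes. The macrophage marker sum overlapped between genotypes, with 2 of 16 markers higher, Fcgr1 and Cx3cr1, and 0 lower (1 at an unadjusted p under 0.05, 0 in DESeq2). That fit had 6 higher and 1, Csf1r, lower at -0.30 (adjusted p = 0.00157). Markers of neutrophils and mast cells summed to at most 4.84 CPM and those of lymphoid and erythroid cells to at most 0.175 CPM in any library. At these low levels, Kit fell with -1.95 and S100a8 rose with 1.455 (adjusted p = 0.0171 and 0.0394). The osteoclast marker sum was 87.7 to 124 CPM in the control and 134 to 145 CPM in the CKO libraries, with Ctsk giving 92.9% of it. Of 3 osteoclast markers tested, 0 passed the test, with Ctsk at 0.32 (adjusted p = 0.226). Markers of other lineages went both ways. Of 7 osteoblast markers tested, 3 fell, the transcription factor gene Sp7 with a log2 fold change of -1.88 and the matrix and mineralization genes Ibsp and Alpl with -1.25 and -1.11, while Spp1 was at 0.43 (adjusted p = 0.375), or 0.66 without control replicate 3 (adjusted p = 0.0110). Bglap, for osteocalcin, was at most at 0.249 CPM in any library, and the osteoblast marker sum, of which Spp1 gave 97.1%, overlapped between genotypes at 10090 to 17230 and 12060 to 20290 CPM. Of 6 adipocyte markers, 3 fell: Adipoq was at 42.9 to 53.8 CPM in the control and 0.289 to 1.48 CPM in the CKO libraries, Plin1 at 2.17 to 4.12 CPM and 0, and Pparg at 25.9 to 35.8 and 9.43 to 10.8 CPM. Fabp4 had every CKO library above every control, with a log2 fold change of 0.46 (adjusted p = 0.0545), and Lpl was at 0.23 (adjusted p = 0.486). Both rose without control replicate 3, with 0.40 and 0.37 (adjusted p = 0.00600 and 0.0382), where Cebpa fell with -0.39 (adjusted p = 0.000575). The adipocyte sum overlapped at 760.2 to 799.8 and 661.9 to 863.0 CPM. The endothelial marker sum also overlapped, at 29.3 to 43.3 and 27.9 to 33.04 CPM, with 3 of its 6 markers above 0 and 3 below. Cdh5 was at -0.66 (adjusted p = 0.0618) and Vwf, with every CKO library above every control, at 0.57 (adjusted p = 0.105), or at -0.46 and 0.60 without control replicate 3 (adjusted p = 0.0201 and 0.0224). The part of these cell types in the values of the cell division genes was not tested.

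The 5 members that fell lie on different chromosomes of GRCm38 in GENCODE M21. Cdca3 is at chr6:124829547-124833701, Ccnf at chr17:24222198-24251484, Ccnb1 at chr13:100778650-100786570, Ttk at chr9:83834689-83872389 and Mcm7 at chr5:138164583-138172422. Exons of Cdca3, Ccnb1 and Ttk overlap no other annotated exon.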

How the data were processed

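The authors mapped clean paired reads of poly(A) RNA to mm10 with HISAT2 and deposited unnormalized counts of reads per gene for 6 libraries. How reads were counted, against which annotation and with which strand setting, is not given in the sources used here. The submitters' processing notes also name FastQC and DESeq2. Sample labels gave the groups and replicate numbers and show 3 libraries per genotype where the design text speaks of duplicates. Whether libraries of a genotype came from separate mice or cultures is not stated, so that p-values measure the spread between these libraries, which may be technical.

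Of 20163 rows, 92 repeated an Ensembl ID with the same counts, and each of 20071 IDs was used once. Counts were fitted for all 13733 genes that passed filterByExpr with edgeR 4.0.16 in R 4.3.3 (TMM factors, quasi-likelihood F test, genotype alone), with Benjamini-Hochberg adjustment over all genes tested. The paper's methods name DESeq2, which was run as an alternative. CPM values are scaled by TMM factors, and levels per kilobase use the longest transcript of GENCODE M21, which held 20059 of the IDs. The SE was derived from the F statistic, as the size of the log2 fold change over its square root. Relative levels are log2(CPM + 0.5). The counts limit the precision only of the lowest members, and errors cover counting and the spread between libraries.

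Genes are described in full where they are Mki67, Top2a or an MCM gene, or have in their list the smallest p-values (4 genes), the highest levels per kilobase (2), the lowest CPM (2) or the highest or lowest log2 fold change. Others are given by role. The 59 genes, the further lists and the tests were chosen with earlier results of these data known. Motifs were searched in RefSeq windows of GRCm38.p6. Alternatives were DESeq2 1.42.0, RLE factors, total counts, limma-voom (limma 3.58.1), no filter, a mean of at least 10 counts, a block for the replicate number, other thresholds and leaving out each library. Leaving out X and Y genes and a correction for transcript length and GC content (splines with 5 degrees of freedom) were chosen after seeing the data. On simulated data for this comparison, with 200 genes changed by a log2 fold change of 1 among 13688, edgeR recovered 193 with 9 false calls. The 59 genes had log2 fold changes from -0.93 to 0.28 in the fit of all 6 libraries, and recovery at these smaller sizes was not tested.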

Additional observations from a re-analysis of the deposited data

How the results depend on the processing

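The medians of both lists kept their sign and moved by less than the SD of the library medians within genotypes, pooled over both (0.102 for mitosis and 0.0716 for replication), in every alternative fit. Without control replicate 1, without CKO replicate 2 and with the correction for length and GC content, the replication median moved by more than the SD of its 3 control medians alone, which lay between -0.02 and 0.03. The medians over the alternative fits ranged from -0.56 to -0.42 for mitosis and from -0.25 to -0.18 for replication. For mitosis, the SD of 0.102 itself holds the spread of control replicate 3. Leaving that library out moved the mitosis median most, from -0.518 to -0.417, so that this SD is no independent measure for that fit. The count of mitosis genes lower at an adjusted p under 0.05 was 4 and became 15 in DESeq2, 10 with total counts, 8 without a filter and 9 with the correction for length and GC content. For replication the count of 1 became 2 in DESeq2 and 2 with that correction. The other mitosis genes went from 6 to 10 in DESeq2, and the other replication genes from 1 to 4 in DESeq2, 2 with total counts and 2 with the correction. At an adjusted p under 0.1 the 4 counts were 15, 3, 12 and 8, and with a log2 fold change of at least 1 in size all were 0. The shares of all genes called with total counts, no filter, the correction, the block for the replicate number or an adjusted p under 0.1 were not counted. For these settings it is thus not shown whether calls changed more in the lists than among all genes. Leaving out 1 library gave 0 to 22, 0 to 8, 1 to 12 and 0 to 8 genes lower, and 0 to 1 other mitosis gene higher (Cenpt). The highest counts came without control replicate 3, and the cause was not tested.

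Same-numbered libraries correlated in their deviations at 0.06, -0.05 and -0.01, and libraries with different numbers at -0.04 to 0.05. With 3 libraries per genotype and control replicate 3 apart from the other controls, these values cannot settle whether the numbers pair the libraries. With the replicate number as a block, 3 mitosis, 0 replication, 4 other mitosis and 2 other replication genes were lower. The 3 mitosis genes were Cdca3, Ccnf and Foxm1, so that Ccnb1, Ttk and Mcm7 lost the call.

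Among the 59 genes, signs turned for 7. Over the fits that left out 1 library, Anln ranged from -0.0182 (without control replicate 1) to 0.231, Pcna from -0.0574 to 0.0482, Gins1 from -0.164 to 0.0253, Gins2 from -0.260 to 0.0471, Rfc4 from -0.275 to 0.363, Ccne1 from -0.143 to 0.0793 and E2f1 from -0.0938 to 0.0137. Rfc4 was also at -0.0138 with total counts and, with the correction for length and GC content, at -0.0652, and E2f1 at 0.000735 with that correction. Of all values of the 59 genes under alternatives, 789 kept their sign and side of the threshold, 56 passed it newly, 26 lost it and 13 turned sign.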
